A study of Mus musculus with 5 samples.

Results

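Double cadherin-positive cells were taken from single-cell RNA sequencing of mouse epiblast stem cells (EpiSCs) that had been differentiated toward mesoderm. A cell of the 4 FGF2 libraries was kept when it had at least 2500 detected genes and at most 10% of its UMIs (unique molecular identifiers, each standing for 1 captured RNA molecule) from mitochondrial genes. A kept cell was a member when it held at least 2 UMIs of Cdh1, at least 2 of Cdh2, at most 7 of T, at most 1 of Tbx6 and at most 2 of Cdkn2a. This rule found 254 members among 8952 kept cells, or 2.84%. The wild-type EpiSC line came from a 129 background and was cultured for 3 days in N2B27 medium with 1 µM CHIR99201 (Chi, an inhibitor of GSK3 that activates Wnt signaling) and 8 ng/ml BMP. The libraries differed in FGF2, which was at 0, 0.75, 3 or 12 ng/ml, and all members of a dose came from a single library of a single line. The whole series, with a further library treated with 30 nM of the FGF receptor inhibitor AZD4547, held 10653 kept cells.

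Cadherins are transmembrane proteins that hold neighboring cells together by binding the same cadherin on the next cell. Cdh1 encodes E-cadherin, the cadherin of epithelia and of the epiblast, and Cdh2 encodes N-cadherin, which is found in mesoderm and neural tissue. When epiblast cells pass through the primitive streak they undergo an epithelial-to-mesenchymal transition (EMT), in which E-cadherin is shut down and N-cadherin comes up, so cells that hold both transcripts can be cells on the way. T/Bra and Tbx6 mark the streak and the presomitic mesoderm that follows from it, and Cdkn2a encodes cell cycle inhibitors. Because the members were chosen by the UMIs of these 5 genes, the levels of the 5 genes are given as a description of the choice. As there was 1 library per dose, no test between doses or classes of cells was run. Intervals are exact 95% intervals that cover counting error and not the spread between cultures.

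The libraries held 2407, 3829, 3067 and 3437 cell barcodes at 0, 0.75, 3 and 12 ng/ml FGF2, where suspensions had been diluted to recover about 2000 cells. Of these, 1696, 2725, 2125 and 2406 cells were kept. Their summed depth was 56812075, 81538748, 64607114 and 70776993 UMIs. Over the pairs of FGF2 libraries, 4 kept barcodes occurred in 2 libraries, and 0 of them belonged to a member.

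The share of members among all kept cells was highest without FGF2, an order that was not found among shallow cells. At 0 ng/ml, 84 of 1696 kept cells were members, or 4.95% (binomial interval 3.97 to 6.10). At 0.75 ng/ml, 91 cells or 3.34% (2.70 to 4.08) were members. The share was 1.88% (1.35 to 2.55) with 40 cells at 3 ng/ml and 1.62% (1.16 to 2.21) with 39 cells at 12 ng/ml. The shares at 3 and 12 ng/ml lay within each other's intervals, and those at 0 and 12 ng/ml differed by -3.33 percentage points (-4.57 to -2.19).

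Part of this order was set by the limits on T, Tbx6 and Cdkn2a. Without those limits, 190, 169, 183 and 207 cells held at least 2 UMIs of both cadherins, which was 11.2%, 6.20%, 8.61% and 8.60% of kept cells at the rising doses (0, 0.75, 3 and 12 ng/ml). The limit on T left out 8, 57, 122 and 148 such cells in the same order. The limit on Cdkn2a left out 96 at 0 ng/ml and between 14 and 19 at the other doses. Of the cells within the 3 limits, 6.43% (5.16 to 7.90), 4.17% (3.37 to 5.10), 3.44% (2.47 to 4.65) and 3.70% (2.65 to 5.03) were members. On this base, the share at 0 ng/ml was again the highest and the other 3 doses had overlapping intervals.

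**Figure D1:**
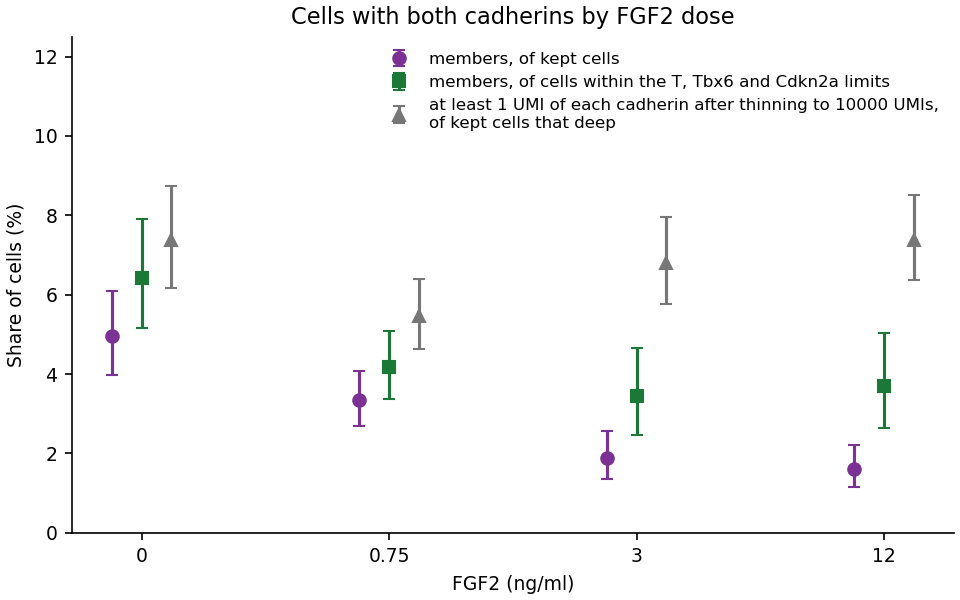
Shares of cells (%) with exact binomial 95% intervals (bars) against FGF2 dose (ng/ml), for members among kept cells, members among cells within the T, Tbx6 and Cdkn2a limits, and kept cells with at least 1 UMI of each cadherin after thinning every cell to 10000 UMIs. Members fell from 4.95% to 1.62% of kept cells between 0 and 12 ng/ml, while the share after thinning was 7.39% and 7.38% at these doses.

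Many members stood near the thresholds. Both cadherins were at exactly 2 UMIs in 40 members and at 3 or more in 87. Just outside, 235 cells within the limits had 1 UMI of Cdh1 and at least 2 of Cdh2, and 259 had at least 2 of Cdh1 and 1 of Cdh2, so each of these bands held about as many cells as the members themselves. At the limit of T, 14 members had 7 UMIs and 18 cells with 8 were left out. At the limit of Tbx6, 21 members had 1 UMI and 33 cells with 2 were left out, and at that of Cdkn2a 15 members had 2 and 23 cells with 3 were left out. More Cdh1 than Cdh2 UMIs were found in 108 members and more Cdh2 than Cdh1 in 89.

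Members were deeper than the other kept cells, which is relevant here because 2 cells captured under 1 barcode (a doublet) would also show both cadherins. The median member held 45355, 36777, 33626 and 31220 UMIs at the rising doses. The medians of the other kept cells were 29119, 27387, 28395 and 27440 in the same order. The ratio of the medians was thus 1.56 at 0 ng/ml and 1.34, 1.18 and 1.14 at the rising doses. A minimum of 2 UMIs for each of 2 genes by itself selects deep cells. At 0 ng/ml, the share of members was 0.708% (0.146 to 2.05) in the 25% of kept cells with the fewest UMIs and 13.0% (9.92 to 16.5) in the 25% with the most. At 0.75, 3 and 12 ng/ml the shares in the 25% with the fewest UMIs were 1.76% (0.912 to 3.05), 0.940% (0.306 to 2.18) and 0.997% (0.367 to 2.16), and those in the 25% with the most were 7.05% (5.24 to 9.24), 3.39% (2.02 to 5.30) and 2.82% (1.65 to 4.48). In the shallowest cells the share at 0 ng/ml was thus the lowest of the 4, with overlapping intervals. Over all doses, 73 members, or 28.7%, were among the deepest 10% of their library, and 63 members (13, 23, 12 and 15) were no deeper than their library's median kept cell. Among all kept cells no deeper than that median, the share of members was 1.53% (0.819 to 2.61), 1.69% (1.07 to 2.52), 1.13% (0.585 to 1.96) and 1.25% (0.700 to 2.05) at the rising doses, with overlapping intervals, and it differed by -0.29 percentage points between 0 and 12 ng/ml.

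For comparison with doublets, 2 classes of single-cadherin cells were taken under the same limits on T, Tbx6 and Cdkn2a. Cdh1-only cells had at least 2 UMIs of Cdh1 and 0 of Cdh2 (1824 cells), and Cdh2-only cells had at least 2 of Cdh2 and 0 of Cdh1 (1796 cells). The median UMIs of both classes added up to 56476, 54640, 54536 and 54811 at the rising doses. The median member was at 80.3% of that sum at 0 ng/ml and at 67.3%, 61.7% and 57.0% at the rising doses. At or above the sum were 22 of 84, 18 of 91, 4 of 40 and 2 of 39 members. Scrublet called 28 of 8952 kept cells as doublets, 0.313%, and 5 of these were members. So low a share was not taken as a working call, and no cell was removed by it. Among the 10% of cells with the highest Scrublet scores there were 65 members, or 25.6%. The part of doublets in the members was not tested.

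**Figure D2:**
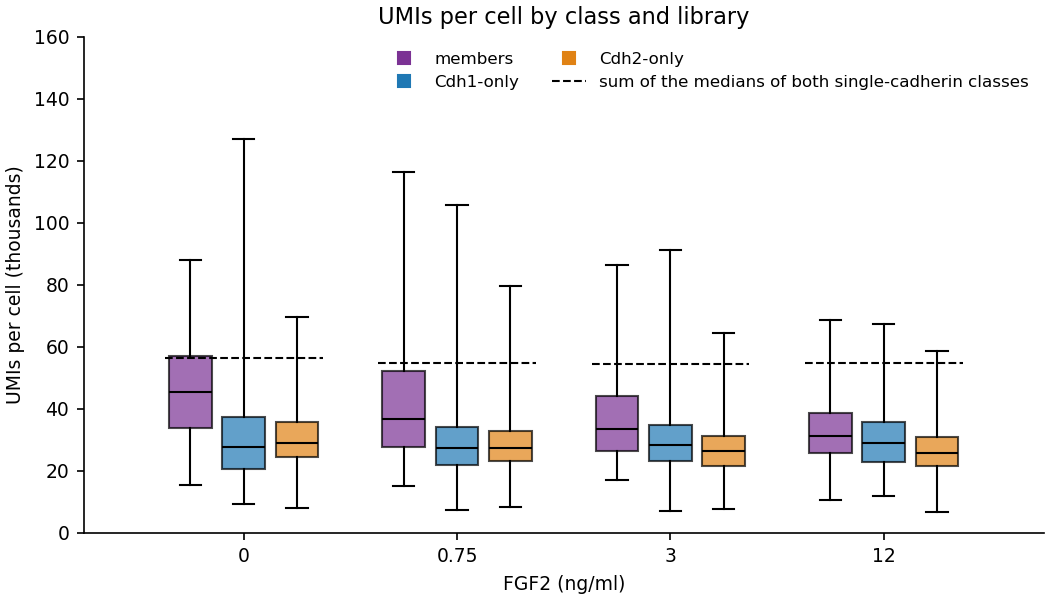
UMIs per cell (axis in units of 1000) by FGF2 dose (ng/ml) for members, Cdh1-only and Cdh2-only cells, with the median (line), quartiles (box), full range (whiskers) and the sum of the medians of both single-cadherin classes (dashed). The median of the members was above both single-cadherin classes at each dose, from 45355 UMIs at 0 ng/ml to 31220 at 12 ng/ml, and below the dashed line.

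To compare doses at the same depth, each kept cell was thinned to 10000 UMIs, which left out between 9 and 19 cells per library that were shallower. At least 1 UMI of both cadherins was then found in 7.39% (6.18 to 8.74), 5.47% (4.64 to 6.39), 6.81% (5.77 to 7.97) and 7.38% (6.37 to 8.50) of cells at the rising doses. Without thinning these shares were 21.8%, 16.7%, 21.2% and 22.1%. The thinned shares were 0.498, 0.358, 0.464 and 0.544 times the product of the shares with each cadherin alone, so both transcripts were found in the same cell less often than that product at each dose. With the limits on T, Tbx6 and Cdkn2a added to the thinned cells, 3.66%, 3.34%, 2.07% and 2.24% of kept cells held both. These limits were applied to the UMIs before thinning, so the shares with limits were not fully at the same depth. RNA from lysed cells in the suspension can add single UMIs of either gene to a cell, and its part in these shares was not tested.

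In the members, levels of both cadherins were below those of the class that held that cadherin alone. Levels are given as CPM, the counts per 1e6 UMIs of a gene, with UMIs summed over all cells of a class in a library. Cdh1 was at 96.3, 100.1, 93.6 and 116 CPM in members at 0, 0.75, 3 and 12 ng/ml, which was 0.580, 0.594, 0.604 and 0.755 times its level in Cdh1-only cells. Cdh2 was at 82.0, 80.5, 108 and 103 CPM, or 0.562, 0.513, 0.644 and 0.595 times its level in Cdh2-only cells. Cdh1 lies on chromosome 8 from 106603351 to 106670246 on the plus strand and Cdh2 on chromosome 18 from 16588877 to 16809246 on the minus strand (GRCm38, GENCODE vM21).

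For most of the genes that differed between the single-cadherin classes, members lay between the classes. Over all 5577 genes compared, 16.8% were between them at all doses. Genes that differed by at least 2-fold between Cdh1-only and Cdh2-only cells, with at least 20 CPM in 1 of them, numbered 736, 624, 556 and 590 at the rising doses, without the 5 genes of the rule. Each gene's level in members was placed on a scale where 0 is its level in Cdh2-only and 1 its level in Cdh1-only cells. The median gene stood at 0.604, 0.735, 0.453 and 0.640 at the rising doses. Members were between both classes for 84.1%, 80.3%, 87.1% and 83.6% of these genes. Genes of Cdh1-only cells and genes of Cdh2-only cells gave like medians, of 0.583 and 0.619 at 0 ng/ml and of 0.641 and 0.636 at 12 ng/ml. The position had no order along the doses.

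Each cell was also placed by itself. For this, 257 genes that were higher in Cdh1-only cells and 68 that were higher in Cdh2-only cells in all 4 libraries were summed, and the index of a cell was the percentage of these UMIs that came from the former. Slc2a3, Krt18 and Krt8 were among the most abundant genes of the former set, and Hmga2, Ccnd2 and Rspo3 among those of the latter. Cdh1-only cells had median indices of 95.8%, 94.1%, 92.7% and 93.2% along the doses, and Cdh2-only cells of 46.5%, 45.5%, 46.6% and 47.8%. The median member was at 89.8%, 88.5%, 72.2% and 76.8%.

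Single members covered nearly the whole span between the classes, from 47.9% to 98.4% at 0 ng/ml and from 44.2% to 97.4% at 12 ng/ml. The lower range was taken to end at the 95th percentile of Cdh2-only cells and the upper range to start at the 5th percentile of Cdh1-only cells. With 12 ng/ml FGF2, 19 members were in the lower range, 19 in the upper range and 1 between them. At 3 ng/ml, 15 were in the lower range, 14 in the upper and 11 between. At 0.75 ng/ml, 14 were in the lower range, 58 in the upper and 19 between. At 0 ng/ml the ranges overlapped, from 85.9% to 87.8%, with 30 members below this overlap, 7 within it and 47 above it. The gap between the ranges was from 72.5% to 84.5% at 0.75 ng/ml, from 67.3% to 79.1% at 3 ng/ml and from 71.0% to 77.8% at 12 ng/ml, where it was the narrowest of these 3. An even mixture of the UMIs of a median Cdh1-only and a median Cdh2-only cell would have an index of 82.1%, 79.2%, 77.8% and 79.2% at the rising doses, as Cdh1-only cells held more UMIs of the summed genes. Such a mixture would be counted below the overlap at 0 ng/ml, in the gap at 0.75 and 3 ng/ml and in the upper range at 12 ng/ml. At 0 and 12 ng/ml the counts therefore do not tell even mixtures or cells of like index from cells of a single class. At 0.75 and 3 ng/ml such cells would be among the 19 and 11 members between the ranges, and what those members were was not tested. An uneven mixture could be in either range at any dose. The numbers between the ranges cannot be compared across doses.

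**Figure D3:**
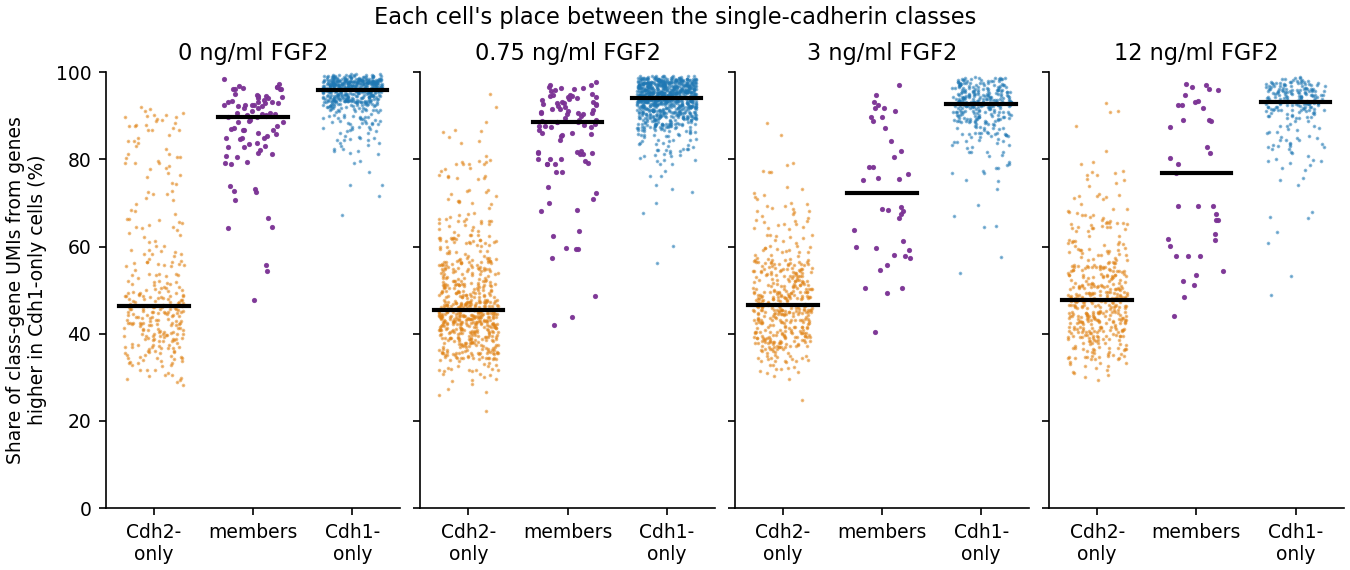
Index of each cell (% of class-gene UMIs that come from genes higher in Cdh1-only cells) for Cdh2-only cells, members and Cdh1-only cells in each FGF2 library, with medians (bars). The members spread over nearly the whole span between the classes at each dose, and at 0 ng/ml their median of 89.8% was below the 95.8% of Cdh1-only cells and below the lower quartile of that class, 93.4%. An even mixture of both classes would lie at 82.1%, 79.2%, 77.8% and 79.2% along the doses.

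The nearest cells in expression space were counted for each member. Within a library, the 15 nearest kept cells were found over 50 principal components of 2443 variable genes, without the genes of the rule. Of the members' neighbors, 11.5% were members at 0 ng/ml, where 4.95% of the cells were. With increasing FGF2 this share was 7.47%, 3.50% and 2.56%, against 3.34%, 1.88% and 1.62% of the cells. Cdh1-only cells made up 17.8%, 34.7%, 16.0% and 21.7% of the members' neighbors, where they were 29.1%, 29.8%, 14.4% and 8.77% of the cells, against 60.6%, 64.1%, 60.8% and 51.9% of the neighbors of Cdh1-only cells. Cdh2-only cells made up 16.5%, 10.6%, 27.2% and 13.5%, where they were 17.5%, 22.6%, 20.9% and 18.2% of the cells. Cdh1-only neighbors were thus below their share of the library at 0 ng/ml and above it at 12 ng/ml. Neighbors of both classes were found for 44 of 84, 24 of 91, 11 of 40 and 13 of 39 members. The remaining 54.2%, 47.3%, 53.3% and 62.2% were cells of none of these 3 classes, which made up 48.4%, 44.3%, 62.8% and 71.4% of the cells.

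Most genes of epithelial junctions and keratins had intermediate levels in members. Of 18 listed genes, 13 reached 20 CPM in members or other kept cells of each library, and 9 of these were between both single-cadherin classes at all 4 doses. Over all 5577 genes compared the share was 16.8%. Of the genes at least 2-fold apart between the classes at each dose, 62.7% of 225 were between them at all doses, and 9 of 12 (75%) in the list, so the list was near the share of such genes. Summed over the list, of which Krt18 was the most abundant, the level in members was 3208, 3023, 1897 and 3181 CPM at the rising doses. Cdh1-only cells were at 4535, 4375, 4252 and 4522 CPM and Cdh2-only cells at 476, 398, 392 and 373 CPM. Epcam, an adhesion molecule of epithelia, had 322, 388, 308 and 437 CPM in members, 536, 597, 621 and 680 CPM in Cdh1-only cells and 64.3, 58.8, 70.7 and 65.1 CPM in Cdh2-only cells. UMIs of Epcam were found in 83 of 84, 90 of 91, 36 of 40 and 39 of 39 members. Krt8, a keratin of simple epithelia, was at 891, 783, 340 and 962 CPM in members and between 1164 and 1260 CPM in Cdh1-only cells. Crb3, a polarity gene of the apical membrane, was at 24.7, 31.1, 20.2 and 25.03 CPM in members and between 47.9 and 56.5 CPM in Cdh1-only cells. Epcam, Krt8 and Crb3 in members were below the Cdh1-only and above the Cdh2-only level in each of the libraries.

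Against the other kept cells, the count of these 13 genes that were at least 1.5-fold higher in members was 0, 1, 5 and 12 at the rising doses. Of all 5577 genes compared, 0.341%, 2.1%, 2.96% and 5.06% were that much higher in members at these doses. The median log2 ratio over the 13 genes was 0.03, 0.36, 0.42 and 1.05, beside 0.02, 0.01, 0.05 and 0.02 over all genes. The other kept cells held less of these genes with more FGF2, with a summed level of 3075 CPM at 0 ng/ml and 2313, 1410 and 1320 CPM at the rising doses. These sums also lay between those of both single-cadherin classes. Members were chosen by Cdh1, while 63.2%, 53.9%, 40.9% and 35.2% of other kept cells held any of it along the doses. The ratios to other kept cells therefore describe the choice of members and are not a test. Krt19, another keratin, was at 47.6, 60.9, 76.8 and 82.9 CPM in members and was above both single-cadherin classes at all doses. At 12 ng/ml, 62.3% of its UMIs in members came from 1 cell, and without the cell with the most Krt19 it was at 35.04 and 33.1 CPM at 0 and 12 ng/ml, below the 43.3 and 35.7 CPM of Cdh1-only cells.

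Epithelial genes are known targets of repressors of the EMT, such as the Snai and Zeb factors, which bind E-box sequences. Promoters of 2 genes of the list are shown, as the 250 bases before the transcript start on the plus strand of GRCm38.p6 as given by RefSeq. They were chosen as examples, after the matches were counted, from 4 genes with at least 2 matches (Crb3 with 3, and Cldn7, Epcam and Ocln with 2 each), because their levels are given above. All 4 genes stood between the single-cadherin classes at all doses, Ocln with under 20 CPM in each class. Capitals mark CAGGTG or CACCTG, which are the same E-box read on either strand. Crb3 lies at chr17:57061951-57062200 with 3 matches, and Epcam at chr17:87635729-87635978 with 2.
Crb3: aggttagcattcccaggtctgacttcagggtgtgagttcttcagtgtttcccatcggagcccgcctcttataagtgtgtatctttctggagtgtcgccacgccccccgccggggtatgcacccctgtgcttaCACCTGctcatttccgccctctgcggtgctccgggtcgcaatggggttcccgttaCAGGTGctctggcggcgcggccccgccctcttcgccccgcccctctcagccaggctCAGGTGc
Epcam: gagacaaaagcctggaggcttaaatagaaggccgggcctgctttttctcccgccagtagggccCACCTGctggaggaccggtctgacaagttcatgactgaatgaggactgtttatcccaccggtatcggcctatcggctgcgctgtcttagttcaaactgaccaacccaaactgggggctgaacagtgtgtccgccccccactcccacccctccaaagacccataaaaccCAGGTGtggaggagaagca
Of 27 listed epithelial genes, 16 had a promoter in the RefSeq table, and 10 of these (62.5%) held at least 1 match in the 250 bases. Over all 27025 genes of the table, the share was 19.4%. These matches describe the sequence and do not show binding.

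Genes of EMT and mesenchyme were also found in members. Zeb1, a repressor of Cdh1, was at 12.7, 4.03, 11.5 and 7.04 CPM in members along the doses. Its level in Cdh1-only cells was between 0.776 and 1.15 CPM and in Cdh2-only cells between 22.3 and 29.3 CPM. Zeb2, its relative, was at 27.5, 31.7, 28.3 and 25.03 CPM in members, between 4.69 and 6.36 CPM in Cdh1-only cells and between 37.5 and 41.5 CPM in Cdh2-only cells. Both repressors were thus above the Cdh1-only and below the Cdh2-only level at each dose. Snai1, which starts the transition in the streak, was at 1.78, 3.76, 6.06 and 7.04 CPM in members and at 5.18, 6.81, 14.1 and 23.2 CPM in the other kept cells. Those other cells included cells with much T or Tbx6, which the rule left out of the members. Vim, which encodes the intermediate filament vimentin, was at 450, 247, 218 and 255 CPM in members, above both Cdh1-only cells (63.1, 35.5, 24.3 and 32.8 CPM) and Cdh2-only cells (249.6, 104, 104 and 187 CPM). Of the Vim UMIs in members at 12 ng/ml, 55.2% came from 1 cell, and at 3 ng/ml 46.7%. Without the cell with the most Vim, members were at 121 CPM at 12 ng/ml, below Cdh2-only cells. Sparc and Fn1, which encode matrix proteins, were also above both classes at all doses, Sparc with 445, 310.2, 195 and 273 CPM and Fn1 with 336, 221, 276 and 393 CPM, where Cdh2-only cells were also at 393 CPM at 12 ng/ml. Without the cell with the most of each, Sparc was at 203 CPM at 12 ng/ml, below the 249.6 CPM of Cdh1-only cells, and Fn1 at 337 CPM, below Cdh2-only cells. Against the other kept cells, 0, 2, 1 and 1 of the 5 genes of the list with enough UMIs were at least 1.5-fold higher at the rising doses, beside 0.341%, 2.1%, 2.96% and 5.06% of all genes, and 1 was lower at 12 ng/ml, beside 1.83%. Of the other cadherins and catenins, Jup and Ctnna1 were 1.87- and 1.63-fold higher in members than in other kept cells at 12 ng/ml, and Ctnnb1 was within 0.896- to 1.04-fold at all doses.

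**Figure D4:**
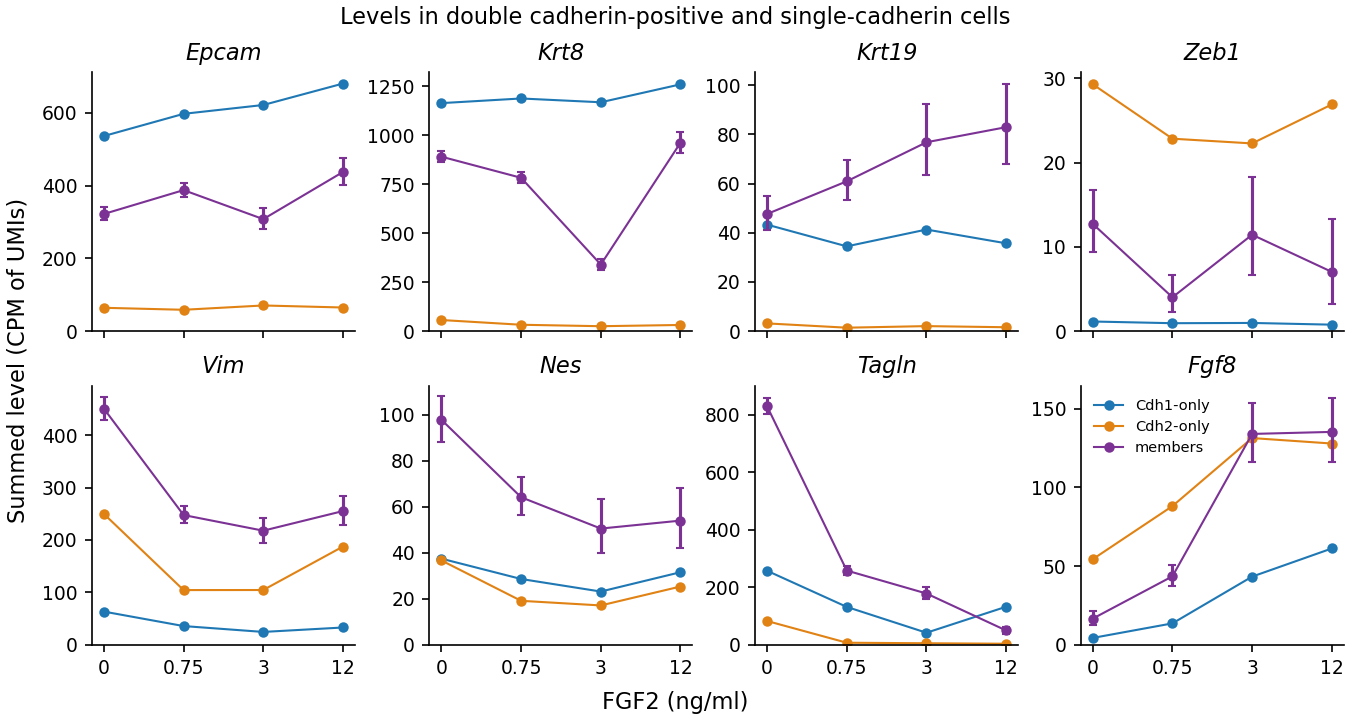
Summed levels (CPM of UMIs) of 8 genes against FGF2 dose (ng/ml) in members, Cdh1-only and Cdh2-only cells, with exact Poisson 95% intervals for the members (bars). Epcam, Krt8 and Zeb1 in members were between both classes at each dose, Vim (at 12 ng/ml with 55.2% of its UMIs from 1 cell) and Nes were above both, Tagln fell from 829 to 49.3 CPM and Fgf8 rose from 16.6 to 135 CPM between 0 and 12 ng/ml.

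Few genes set members apart from the other kept cells at every dose. A gene was counted when it reached 20 CPM in members or other kept cells and differed by at least 1.5-fold in the same direction in each of the 4 libraries. Of 5577 genes, 7 were higher in members (0.126%) and 1 was lower (0.0179%). As members were chosen by RNA counts of the same cells, these genes describe the members and are not a test. The 7 genes were Nes, Ccn1, Phlda1, Gap43, Glipr2, Cnn2 and Sema3e, and the lower one was Crabp1.

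Nes, which encodes the intermediate filament nestin, was at 97.8 (88.3 to 108), 64.1 (56.3 to 72.8), 50.5 (39.7 to 63.3) and 54.0 (42.0 to 68.3) CPM in members along the doses. Its levels in the other kept cells were 57.9, 27.7, 25.6 and 35.3 CPM, which gave ratios of 1.69, 2.31, 1.97 and 1.53. Nes was thus higher in members in all 4 libraries, and most so at 0.75 ng/ml. Ccn1, which encodes a secreted matrix protein and is a target of YAP, was at 119, 58.8, 49.2 and 42.2 CPM in members and at 71.7, 28.0, 17.8 and 24.1 CPM in other cells. Cnn2, which encodes the actin-binding protein calponin 2, was at 303, 159, 111 and 135 CPM in members, with ratios of 1.501, 1.70, 2.11 and 1.87. Gap43, which encodes a growth cone protein, was at 133, 101, 75.4 and 87.6 CPM, with ratios of 1.56, 1.93, 2.09 and 2.23. All of Nes, Ccn1 and Cnn2 were at their highest in members without FGF2. Among members no deeper than the median kept cell, Nes was at 49.6, 53.6, 6.98 and 50.3 CPM. Ccn1 was at 55.8, 85.4, 20.95 and 2.96 CPM in these cells, and Cnn2 at 158, 125, 87.3 and 53.3 CPM. There Nes and Ccn1 were highest at 0.75 ng/ml, and Cnn2 was again highest at 0 ng/ml. The values of Nes at 3 ng/ml and of Ccn1 at 12 ng/ml rested on few UMIs.

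Phlda1 had ratios of 1.62, 1.79, 1.61 and 1.60 and Glipr2 of 1.55, 2.07, 2.45 and 1.71. Sema3e, which encodes a guidance ligand of the semaphorin family, had ratios of 1.52, 1.98, 2.63 and 6.33. Crabp1, which encodes a retinoic acid-binding protein, was at 52.0, 41.9, 14.1 and 18.8 CPM in members and at 79.4, 74.9, 69.8 and 94.1 CPM in the other kept cells. Its ratio was 0.655 at 0 ng/ml and 0.559, 0.203 and 0.199 at the rising doses. In Cdh1-only cells Crabp1 was at 69.5, 47.8, 20.8 and 8.85 CPM, so that the low level was not found in members alone.

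The size of these differences changed with the depth of the cells compared. When each member was compared with the 3 other kept cells of its library nearest to it in UMIs, 0 of the 7 genes and not Crabp1 stayed past 1.5-fold at all doses, and 1 other gene, Crmp1, did. The ratios of Nes were then 1.497, 1.66, 1.64 and 1.24, those of Phlda1 1.46, 1.40, 1.66 and 1.82, and those of Crabp1 0.803, 0.682, 0.306 and 0.229. At 0.75 ng/ml the ratio of Ccn1 was 0.984 and that of Cnn2 1.03. Apart from Ccn1, the genes kept a ratio on the same side of 1 in all 4 libraries. When members and other kept cells were both limited to cells no deeper than the median kept cell, with 63 members left, the median log2 ratio was 0.94 for Gap43, 0.81 for Cnn2, 0.81 for Phlda1, 0.77 for Nes, 0.73 for Glipr2 and 0.70 for Ccn1, and it was -0.50 for Sema3e. Phlda1 and Cnn2 were higher in these members in all 4 libraries, while the ratios of Nes were 1.485, 3.13, 0.395 and 1.97. The ratios of Ccn1 were 1.29, 5.82, 2.06 and 0.161, and those of Sema3e 1.01, 2.02, 0.4465 and 0.496. Nes was there at 6.98 CPM in members at 3 ng/ml and Ccn1 at 2.96 CPM at 12 ng/ml. Sema3e was at 3.49 and 2.96 CPM at 3 and 12 ng/ml. Such values rested on few UMIs, so no direction was read from them. Gap43 was lower in these members at 3 ng/ml (0.690) and Glipr2 at 12 ng/ml (0.820). Crabp1 stayed at least 1.5-fold lower at all doses, with ratios of 0.569, 0.432, 0.307 and 0.125, as did 1 other gene, AU020206. The 6 genes higher by 1.5-fold at all doses were Crip2, Crmp1, Lpin1, Palld, Shisa5 and Sp5, with 0 of the 7. Leaving out, for each gene and library, the member with the most UMIs of that gene, 0 of the 7 genes stayed past 1.5-fold at all doses, with ratios from 1.19 for Nes at 12 ng/ml to 2.33 for Sema3e at 12 ng/ml, all above 1. Crabp1 then had ratios from 0.112 to 0.609. The part of depth in these differences was not tested beyond these comparisons.

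**Figure D5:**
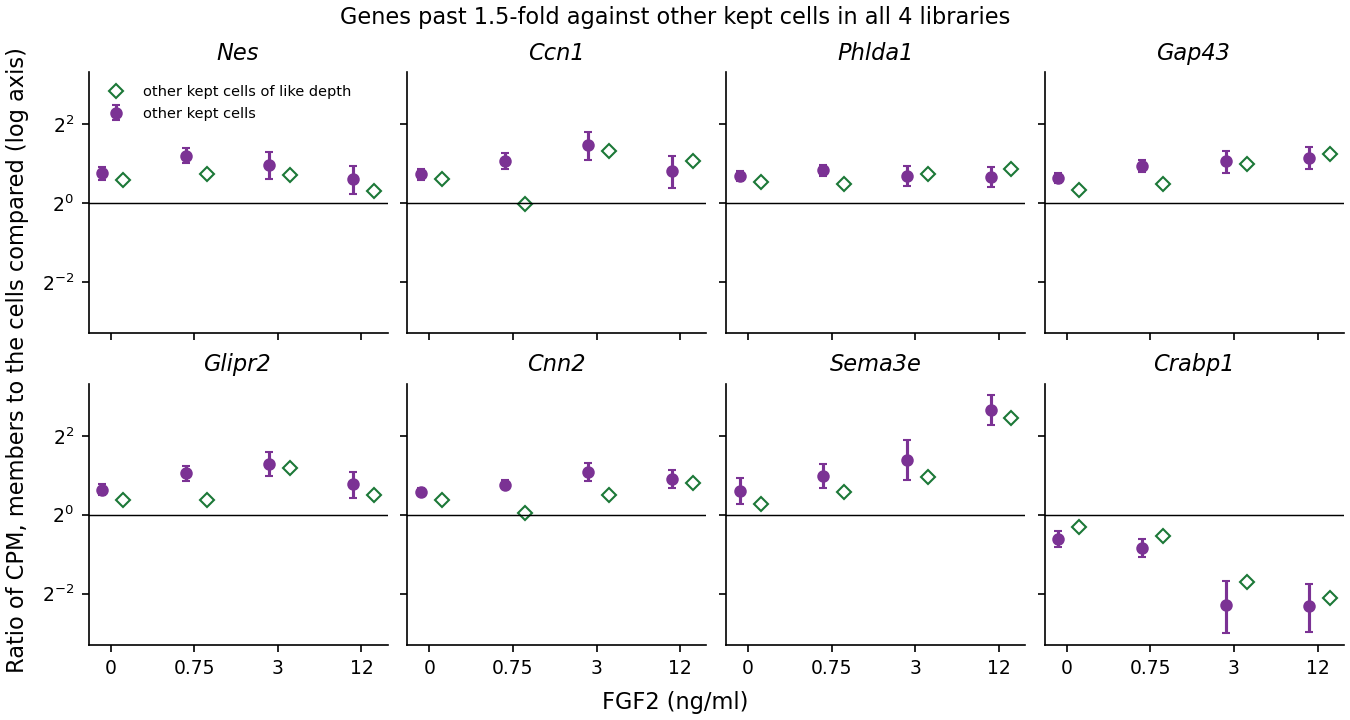
Ratio of CPM in members to that in other kept cells (filled, with exact conditional 95% intervals) and to other kept cells of like depth (open) for the 8 genes past 1.5-fold at all doses, against FGF2 dose (ng/ml), on a log axis. Ratios were closer to 1 against cells of like depth in most panels, down to 0.984 for Ccn1 at 0.75 ng/ml.

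The number of genes past 1.5-fold differed between doses. At 0, 0.75, 3 and 12 ng/ml, 19, 117, 165 and 282 genes were higher in members and 32, 17, 55 and 102 lower (0.574%, 0.305%, 0.986% and 1.83% lower). In at least 3 libraries, 57 genes were higher and 8 lower. The members' sums rested on 3925106, 3726286, 1484653 and 1278315 UMIs, so that values at 3 and 12 ng/ml had wider intervals.

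Set against both single-cadherin classes at once, 3 of 5975 genes (0.0502%) were at least 1.5-fold above both in each library, and 0 were below both. They were Nes, Oxct1 and Hbegf. Nes was 1.71- to 2.61-fold above Cdh1-only and 2.13- to 3.36-fold above Cdh2-only cells. Oxct1, which encodes an enzyme of ketone body use, was at 25.5, 26.3, 32.3 and 53.2 CPM in members and between 12.6 and 30.1 CPM in both classes. Hbegf, which encodes a ligand of the EGF receptor, was at 49.2, 41.1, 20.9 and 46.2 CPM in members and between 8.20 and 30.8 CPM in both classes. With all classes limited to cells no deeper than the median kept cell, 0 of the 3 genes passed and Lpin1, Pmp22, Tmem185a and Tubb6 did. The ratio of Oxct1 to other kept cells was then 1.19, 1.24, 1.175 and 1.35, and it was 1.18, 1.215, 1.09 and 1.22 against cells of like depth over all members. The ratio of Hbegf in the shallow cells was 0.687, 3.35, 2.58 and 1.68, so its direction turned at 0 ng/ml. Against cells of like depth over all members it was 1.12, 1.24, 1.98 and 2.77. Without the member with the most UMIs of the gene, each of the 3 was above both classes at all doses but under 1.5-fold in at least 1 library. The genes nearest to passing were Ly6e, Nefl, Emp3, Vim and Gap43, each of which was above both classes at all doses but under 1.5-fold in at least 1 of them. For Vim and Nefl this rested on 1 cell at 12 ng/ml. Nearest to passing below both were Mpst, Gas5, Tle3, Gga2 and Dcaf8, such as Gas5 with 351, 455, 473 and 426 CPM in members and between 451 and 587 CPM in the classes. Against cells of like depth, 0 genes were above both classes by 1.5-fold.

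For genes of the streak and of caudal fates, the rule itself had left out cells with much T or Tbx6. The streak list summed to 59.1, 104, 263 and 228 CPM in members and to 70.8, 143, 267 and 289.99 CPM in other kept cells, with 33.8, 57.6, 85.5 and 124 CPM in Cdh1-only and 102, 158, 222 and 255 CPM in Cdh2-only cells. At 3 ng/ml, 55.9 CPM of the sum in members was Mesp1, with 74.7% of its UMIs from 1 cell. The caudal epiblast list summed to 345, 494, 749.7 and 655 CPM in members and to 396, 656, 763 and 660.4 CPM in other kept cells. Fgf8, a ligand of the streak, was at 16.6, 43.5, 134 and 135 CPM in members and at 25.1, 73.6, 156 and 161 CPM in other kept cells, with ratios between 0.590 and 0.858. With members and other cells no deeper than the median kept cell the direction turned at 3 and 12 ng/ml, where Fgf8 was at 195.5 and 239.7 CPM in members and the ratios were 1.27 and 1.435. Hes7, an oscillating gene of the presomitic mesoderm, was at 14.3, 25.2, 55.2 and 69.6 CPM in members and at 30.5, 57.5, 93.5 and 103 CPM in other cells, and it was at least 1.5-fold lower at 3 of 4 doses. Dll1, a Notch ligand of the same tissue, was at 1.78, 6.44, 11.5 and 9.39 CPM in members and at 9.34, 20.7, 47.7 and 68.5 CPM in other cells. Of the 4 caudal epiblast genes that reached 20 CPM, 1 passed 1.5-fold, which was Hoxb8 with a ratio of 0.660 at 0.75 ng/ml, where 0.305% of all genes were lower. Cdx2, the caudal homeobox gene, was at 95.3, 149, 195 and 216 CPM in members and at 109.9, 190.3, 219 and 184 CPM in other cells.

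Of the lateral and extraembryonic mesoderm list (16 genes, 7 with enough UMIs), 1, 3, 3 and 3 genes were at least 1.5-fold higher in members along the doses, beside 0.341%, 2.1%, 2.96% and 5.06% of all genes compared, and 0 were lower. Its sum was 1839, 999, 666 and 776 CPM in members and 1358, 692, 457 and 390 CPM in the other kept cells, with Tagln as its most abundant gene. Tagln, which encodes the actin-binding protein transgelin, was at 829, 258, 178 and 49.3 CPM in members and at 451, 97.2, 19.2 and 41.8 CPM in other cells. At 3 ng/ml, 77.3% of its UMIs came from 1 of 40 members, and without the cell with the most Tagln the ratios were 1.60, 2.01, 2.15 and 0.589. With members and other cells no deeper than the median kept cell, the ratios were 0.831, 4.06, 1.79 and 7.73. The direction at 0 ng/ml thus turned, with 155 CPM in members and 186.5 CPM in other cells. Ahnak, which encodes a large scaffold protein, was 1.07-, 1.85-, 2.29- and 4.52-fold as high as in other cells. Hand1, a transcription factor of lateral and extraembryonic mesoderm, was at 78.7, 56.9, 24.2 and 113 CPM in members. With 12 ng/ml FGF2, 73.8% of its UMIs came from 1 cell and 8 members held any, so that the value of this library was that of single cells.

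Markers of other cell types were low for some lists and present for others. All 5 neurectoderm genes, all 8 endoderm genes and 6 of 8 hemato-endothelial genes were under 5 CPM in members at each dose, with Cer1, Ttr and Gata1 at 0 UMIs in members. The sum of the endoderm list was between 1.35 and 5.10 CPM and that of the neurectoderm list between 3.49 and 6.62 CPM. Runx1, the most abundant of the hemato-endothelial genes, was at 51.7, 12.3, 8.08 and 32.1 CPM in members. That list summed to 60.6, 18.2, 15.5 and 49.3 CPM in members and to 68.3, 24.5, 27.2 and 39.7 CPM in other kept cells, with 20.8 and 22.7 CPM in Cdh1-only and Cdh2-only cells at 0 ng/ml. Surface ectoderm genes summed to 215, 219, 117 and 117 CPM in members to 382, 372, 301 and 243 CPM in Cdh1-only cells and to 230.3, 189.9, 88.2 and 60.9 CPM in other kept cells. Wnt6, a secreted Wnt ligand and the most abundant gene of that list, was 1.85- and 1.82-fold higher in members than in other kept cells at 3 and 12 ng/ml (1.36- and 1.41-fold without the cell with the most), and Krt5 and Krt14 stayed under 5 CPM. The extraembryonic ectoderm list summed to 109, 129, 51.2 and 171 CPM in members and to 174, 111, 74.0 and 57.9 CPM in other kept cells, with Hand1 as its most abundant gene. Of its 2 genes with enough UMIs, Hand1 and Tfap2c, 1 was 1.5-fold lower at 0 ng/ml (0.574% of all genes) and both were higher at 12 ng/ml (5.06%), where without the cell with the most UMIs their ratios were 1.01 and 1.41. The part of such cells in the members was not tested. Of the primordial germ cell list, Ifitm3 was the gene with enough UMIs, at 55.8, 65.7, 30.3 and 74.3 CPM. Sox2, of the epiblast list, was 1.78-, 0.973-, 1.60- and 1.63-fold as high in members as in other kept cells, and Nanog and Pou5f1 stayed under 15 CPM. Of the 2 genes of that list with enough UMIs, 1, 0, 1 and 1 were at least 1.5-fold higher along the doses. The shares of all genes compared were 0.341%, 2.1%, 2.96% and 5.06%. With Dnmt3b as its most abundant gene, the list summed to 110, 132, 176 and 128 CPM in members. Other kept cells were at 86.7, 116, 119 and 125 CPM.

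Targets of the 3 signals in the medium had medians close to the level of other kept cells, with single genes apart. For FGF/ERK targets the median log2 ratio was 0.21, 0.11, 0.03 and 0.03 along the doses, over 6 genes. It was -0.28, 0.03, -0.18 and 0.17 for 5 BMP targets and -0.09, -0.03, 0.03 and -0.09 for 6 Wnt targets. Spry1, an inhibitor of FGF signaling that did not reach 20 CPM at all doses, was 3.23-fold higher in members at 12 ng/ml, with 34.4 against 10.7 CPM. Egr1, an immediate early gene, was 2.08-fold and Smad7, an inhibitor of BMP and TGFβ signaling, 2.13-fold higher in members at 12 ng/ml, and 1.16- and 1.63-fold without the cell with the most UMIs of each. Lef1 and Tcf7, which encode the DNA-binding partners of β-catenin, were lower there, at 0.596- and 0.594-fold, and Sp5 was 1.72-fold higher at 0 ng/ml. Of all genes compared, 5.06% were at least 1.5-fold higher and 1.83% lower at 12 ng/ml, and 0.341% were higher at 0 ng/ml. Genes of S phase and G2/M, which are expressed in cycling cells, had median log2 ratios of 0.13, -0.07, 0.11 and 0.09 over 10 genes, with 0 of them 1.5-fold higher at any dose and 1, Mcm2, lower at 12 ng/ml (0.663-fold), where 1.83% of all genes were lower. Of 7 p53 targets, Cdkn1a (1.53-fold) and Mdm2 (1.80-fold) were higher at 0.75 ng/ml and Trp53inp1 (1.71-fold) at 3 ng/ml, beside 2.1% and 2.96% of all genes.

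Within members, levels were compared between doses by a rule of at least 50 CPM at 1 of the doses and a 2-fold difference. From 0 to 12 ng/ml, 33 of 3244 genes were higher (1.02%) and 45 lower (1.39%). In the other kept cells of the same libraries, 16 of the 33 and 36 of the 45 also differed by 2-fold in that direction. From 0 to 0.75 ng/ml, 8 genes were higher and 16 lower in members (0.255% and 0.51%), from 0.75 to 3 ng/ml 17 and 18 (0.529% and 0.56%), and from 3 to 12 ng/ml 20 and 14 (0.613% and 0.429%). In the other kept cells, 0 of 2967 genes differed 2-fold from 3 to 12 ng/ml, while members had 34, with about 40 cells at each of these doses.

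The 5 genes with the largest fall from 0 to 12 ng/ml were Acta2, Tagln, Cnn1, Acta1 and Nexn, out of 45. Acta2, smooth muscle actin, fell from 205 (191 to 220) to 8.61 (4.30 to 15.4) CPM, with 31.4 and 17.5 CPM at 0.75 and 3 ng/ml. In the other kept cells it was at 136, 22.6, 14.9 and 15.8 CPM. Tagln fell from 829 to 49.3 CPM and Cnn1, calponin 1, from 68.0 to 4.69 CPM, with 13.1 and 6.74 CPM between. Acta1 was at 104, 57.7, 34.4 and 9.39 CPM and Nexn at 57.1, 11.3, 9.43 and 6.26 CPM. At 0 ng/ml Acta2 was found in 45 and Tagln in 61 of 84 members, and at 12 ng/ml each was found in 8 of 39. The falls were not the same in shallow members. Among the 63 members no deeper than the median kept cell, Acta2 was at 18.6, 33.8, 6.98 and 14.8 CPM, Acta1 at 18.6, 29.8, 27.9 and 0 CPM, and Cnn1 at 0, 0, 6.98 and 5.92 CPM. Tagln was at 155, 111, 14.0 and 47.3 CPM and Nexn at 21.7, 0, 6.98 and 2.96 CPM in these cells. At 0 ng/ml each of the 5 genes was thus lower in shallow members than in all members, and the falls of Acta2 and Tagln to 12 ng/ml were smaller. Values near 0 rested on few UMIs, so no order by dose was read for Cnn1, Acta1 and Nexn in these cells.

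Of the genes that rose most, Fgf8 and Igfbp3 were found in many members. Fgf8 had UMIs in 18 of 84, 35 of 91, 31 of 40 and 28 of 39 members. Igfbp3, which encodes a binding protein of insulin-like growth factors, was at 16.1, 59.0, 66.0 and 124 CPM, from 25, 45, 19 and 18 members. Ly6a and Sfn rested on few cells. Ly6a was at 92.3 CPM at 12 ng/ml in 7 cells, with 59.3% of its UMIs from 1 of them, and Sfn at 56.3 CPM in 4 cells, with 88.9% from 1. Sprr2a3 rose from 3.06 CPM in 6 members to 82.9 CPM in 16 of 39 members, with 116 CPM in the other kept cells at 12 ng/ml. Among members no deeper than the median kept cell, Fgf8 was at 0, 49.6, 195.5 and 239.7 CPM along the doses. Igfbp3 was at 24.8, 29.8, 13.97 and 139 CPM in these cells and Sprr2a3 at 0, 121, 76.8 and 94.7 CPM. Ly6a was there at 3.1, 15.9, 13.97 and 17.75 CPM, and Sfn at 0, 5.96, 3.49 and 0 CPM. By list, the genes that passed 2-fold from 0 to 12 ng/ml were 1 of 1 streak gene (Fgf8), 2 of 4 caudal epiblast genes (Cdx2 and Hoxb8), 1 of 1 presomitic gene (Hes7), 1 of 3 FGF/ERK targets (Dusp4) and 1 of 4 Wnt targets (Sp8), all higher, beside 1.02% of all genes. In the other kept cells Fgf8, Hes7, Dusp4 and Hoxb8 were also over 2-fold higher at 12 ng/ml, by 6.402-, 3.38-, 2.49- and 2.04-fold, while Cdx2 and Sp8 were 1.68- and 1.502-fold higher. Of 8 lateral and extraembryonic mesoderm genes 4 passed (Tagln, Acta2, Pmp22 and Msx2), all lower, beside 1.39% of all genes. The level of the other kept cells at 12 ng/ml was 0.0927, 0.116, 0.324 and 0.405 times that at 0 ng/ml for these 4 genes, so they were lower there too. Of the 12 epithelial junction genes and the 10 S phase and G2/M genes, 0 passed.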

How the data were processed

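Raw UMI counts by gene and cell barcode were deposited, which the authors made with Cell Ranger (5.0.1 in the matrix headers) on mm10, for barcodes it called as cells. The authors' filters on cells had not been applied. Members and lists were chosen with earlier results of these data known. Levels were UMIs summed over the cells of a class divided by their total (CPM), with exact Poisson intervals; ratios had exact conditional and shares exact binomial (Clopper-Pearson) intervals, all at 95% and for counting error only. With 1 library per condition no test, p-value or standard error was computed, and genes were counted by rules of size. The p53, cell cycle, signaling, fate and epithelial lists were written by hand. The text names the genes of the rule and of the lists, 10 at most in each direction of a comparison between classes and 5 in each direction between doses, and the 5 nearest where fewer passed against both single-cadherin classes. Crmp1, Slc2a3, Hmga2, Ccnd2, Rspo3, Crip2, Lpin1, Palld, Shisa5, Tmem185a, Tubb6 and AU020206 fall outside these and were chosen after their values were seen. Mitochondrial, ribosomal and unnamed predicted genes were counted but not named. Gene positions came from GENCODE vM21. Scrublet was run per library without removing cells. Python 3.11.15, NumPy 2.4.6, SciPy 1.17.1, pandas 2.3.3, Scanpy 1.11.5, scikit-learn 1.9.0 and Matplotlib 3.10.9 were used, with edgeR 4.0.16 (R 4.3.3) for TMM scaling. Alternatives changed the filters, cadherin minimums, limits, depth, scaling, level minimum, fold and libraries.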

Additional observations from a re-analysis of the deposited data

Results flagged for a closer look

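A pair of the named genes differed in opposite directions from the other kept cells at different doses, each by at least 1.5-fold, and neither difference between doses was tested. Sfn, which encodes the 14-3-3 protein stratifin of epithelia, was at 0.273 times the level of other kept cells at 0 ng/ml (25 UMIs in 11 members) and at 2.36 times at 12 ng/ml, where 88.9% of its 72 UMIs came from 1 of 39 members. Tfap2c, which encodes a transcription factor of trophoblast, was at 0.485 times at 0 ng/ml and at 2.0 times at 12 ng/ml, with 88 and 50 UMIs and with 32.0% of the latter from 1 cell.

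The library treated with AZD4547, which entered none of the comparisons, also held cells that met the rule. They were 13 of 1701 kept cells, or 0.764% (0.408 to 1.30), which is above the 3 counts that a count of 0 would allow. Of the 13, 9 were in the 25% of kept cells with the most UMIs. The median of the 13 was 37380 UMIs, against 24375 in the other kept cells of this library. The part of depth and of doublets in this count was not tested. The limit on Cdkn2a left out 119 further cells with at least 2 UMIs of both cadherins and that on T 0, of 132 in all. After thinning to 10000 UMIs, both cadherins were found in 7.58% (6.35 to 8.96) of its cells.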

How the results depend on the processing

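No paired analysis was possible because the labels give no replicate numbers and there was 1 library per dose. Members numbered 39 to 91 per library, which limits the precision. The alternatives with members no deeper than the median kept cell (against other cells of every depth, or with all classes limited to that depth), and without the member with the most UMIs of a gene, were chosen after the data were seen. In all alternatives that gave a value, the share of members was lower at 12 than at 0 ng/ml. The change of -3.33 points became -1.99 with at least 3 UMIs of each cadherin, -1.41 with cells thinned to 10000 UMIs and -0.17 with the deeper members, but not the deeper other cells, left out of the base. With all cells limited to that depth it was -0.29. Leaving out the 0 or the 12 ng/ml library gave no value for it. For thinned cells, the limits on T, Tbx6 and Cdkn2a were applied to the UMIs before thinning. The ratio of median depths, 1.26, became 1.60 with at least 3 UMIs of each cadherin, 1.01 with thinned cells and 1.04 with all cells no deeper than the median. The median position between the classes, 0.622, was between 0.535 and 0.640 in all alternatives except for members no deeper than the median kept cell, at 0.413 against cells of every depth and 0.450 with all cells limited to that depth.

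The counts of genes higher and lower than in other kept cells (7 and 1), above and below both single-cadherin classes (3 and 0) and different by dose (78) were small and moved with nearly every choice, and the cause was not tested unless stated. At most 5% mitochondrial UMIs gave 2 genes higher and 0 lower. At least 1 UMI of each cadherin gave 0 higher, 1 above both and 44 by dose, and at least 3 gave 7 higher (Ccn1, Nes and Phlda1 shared with the 7 above), 2 lower, 5 above both and 362 by dose, with 87 members. Without limits on T, Tbx6 and Cdkn2a there were 87 higher, 19 lower, 13 above both and 235 by dose. Without the deepest 10% of cells there were 6 higher (Gap43 shared), 4 lower, 1 above both, 1 below both and 149 by dose, and without the 10% highest Scrublet scores 17 higher and 5 above both. Thinned cells gave 0 higher, 0 lower and 0 above both. Comparison cells of like depth gave 1 higher, 0 lower and 0 above both. With every cell at the same weight there were 19 higher. TMM scaling gave 4 higher and 3 lower, and median-of-ratios scaling 2 lower. A minimum of 10 CPM (20 CPM for doses) gave 14 higher, 2 lower, 9 above both and 226 by dose. Without a minimum there were 57 higher, 695 lower, 29 above both, 50 below both and 2304 by dose, since genes with few UMIs then counted. A fold of 2 (1.5 for doses) gave 0 higher, 0 lower, 0 above both and 228 by dose. Single-cadherin cells with the other cadherin at 0 or 1 gave 0 above both. Members no deeper than the median kept cell gave 1 higher, 4 lower, 3 below both and 325 by dose against cells of every depth, and 6 higher, 2 lower, 4 above both, 0 below both and 325 by dose with all cells limited to that depth, with 63 members.

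Leaving out 1 library at a time gave 8 to 55 genes higher, 2 to 5 lower and 3 to 15 above both, with the largest number higher without the 0 ng/ml library and the largest number above both without the 12 ng/ml library. A gene that passes in each of 4 libraries also passes in any 3, so these counts could only stay or grow. For 29 named genes, 508 median log2 ratios were recomputed, of which 410 moved by less than the spread over the libraries, 90 by more, and 8, past 1.5-fold as reported, changed sign. Counting also values under 1.5-fold, 29 had another sign, 10 of them for members no deeper than the median kept cell against cells of every depth, such as Acta2 (-0.59), Vim (-0.18) and Oxct1 (-0.10), and 5 with all cells limited to that depth, where Vim and Oxct1 were at 0.53 and 0.28. In that last setting the ratios of Acta2 were 0.261, 3.32, 0.4705 and 0.840 along the doses. Of the 8, Nefl turned to -0.0087 with thinned cells. Among members no deeper than the median kept cell, against cells of every depth, Nefl was at -1.47, Sema3e at -0.82, Tagln at -0.14, Ccn1 at -0.063 and Glipr2 at -0.054. With all cells limited to that depth Nefl was at -0.30 and Sema3e at -0.50, while the medians of Tagln (1.43), Ccn1 (0.70) and Glipr2 (0.73) had the sign of all members. In single libraries these 3 genes also turned, with ratios of 0.831 for Tagln at 0 ng/ml and of 0.161 for Ccn1 and 0.820 for Glipr2 at 12 ng/ml. In these shallow members Ccn1 at 12 ng/ml and Sema3e at 3 and 12 ng/ml rested on few UMIs. So did Nefl at 0.75 ng/ml, with 1.99 CPM.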

Other observations

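Mesp1, a transcription factor of nascent mesoderm, was at 55.9 CPM in members at 3 ng/ml and at 0, 5.64 and 11.0 CPM at 0, 0.75 and 12 ng/ml, and 74.7% of its UMIs at 3 ng/ml came from 1 of the 5 members that held any. Runx1, a transcription factor of blood and other mesoderm, was at 51.7 CPM at 0 ng/ml with UMIs in 46 of 84 members, and at 8.08 CPM at 3 ng/ml in 4 of 40 members, with 66.7% from 1 cell. Utf1, of the epiblast list, was at 29.6 CPM at 3 ng/ml, all of it from 1 cell, and at 4.33, 7.51 and 11.0 CPM at the other doses. Spry1, an inhibitor of FGF signaling, was at 34.4 CPM in members at 12 ng/ml and at 10.7 CPM in the other kept cells, with ratios of 1.21, 1.33 and 1.11 at the lower doses.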
